A study of Mus musculus with 16 samples.

Results

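The comparison described here sets day 2 of epiblast-like cell induction in libraries labelled DKO against the same day in WT libraries, with 2 libraries in each group, 4 of the 16 libraries in the series. All of them are E14tg2a mouse embryonic stem cells, an established feeder-independent line. For induction, cells were placed on fibronectin in N2B27 medium with bFGF at 12 ng/mL, and the labels give day 2. The stage before it is 2i medium, which contains LIF at 1000 U/mL, the MEK inhibitor PD0325901 at 1 µM and the GSK3β inhibitor CHIR99021 at 3 µM. The series holds WT cells, cells with Prdm14 knocked out in cis and cells that overexpress Prdm14. The labels DKO and P14 were matched to the second and the third kind by elimination, since no label spells them out. Libraries labelled DKO and WT in 2i medium and at day 4, and libraries labelled P14 at day 2, are used where they bear on day 2. Libraries labelled P14 at day 4 enter the shared fit and the chromosome levels by library. Every gene with a symbol was a member of the comparison, 21455 in all, and 21450 passed the filter on low values.

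When naive embryonic stem cells leave 2i medium with bFGF, they pass through a formative state that resembles the epiblast just after implantation. Transcription factors such as NANOG, ESRRB and the KLF family hold the naive state, and their genes are shut down as de novo DNA methyltransferases and factors such as OCT6 (Pou3f1) come up. PRDM14 is a zinc finger protein that keeps naive genes on, restrains FGF signalling and DNA methylation, and is needed for germ cell specification.

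Sequencing depth at day 2 was 23150041 and 28553343 reads in the DKO libraries and 23581453 and 25086361 reads in the WT libraries. All values below are normalized read counts per library, with no correction for gene length, and changes are log2 (DKO over WT) with limma's standard error. Nothing in the labels ties the 2 libraries of a group to separate cultures, and the number of clones is not stated there. The p-values therefore measure only the spread between libraries within groups, estimated over all 16 libraries of the series. An effect of genotype and one of the individual line cannot be told apart. Markers of pluripotent cells were abundant in both groups, with Pou5f1, Sox2, Sall4, Lin28a and Nanog summing to 16692 and 16289 in DKO and 13993 and 12991 in WT. In bulk samples, fewer cells of a type and less RNA per cell cannot be told apart.

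Prdm14 itself did not show less RNA under the DKO label. It stood at 1347 and 1273 in DKO libraries, against 625 and 712 in WT libraries, a rise of 0.97 ± 0.12 (SE, adjusted p = 6.3e-05). Both DKO libraries lay above both WT libraries. The values do not show whether the protein or a control element is missing, so each change below belongs to the DKO label as deposited.

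At day 2, 2707 of 21450 genes differed between DKO and WT cells, which is 12.6% of those tested. Of these, 1283 were higher in DKO cells (5.98%) and 1424 were lower (6.64%), and the median change of all genes was 0.00. More than 2-fold rises were called for 541 genes and more than 2-fold falls for 575. Beyond 4-fold, 178 genes were higher and 200 lower. Protein-coding genes made up 2446 of the 2707, and 15102 of the 21450 tested. The 2 groups did not overlap in any called gene, but neither did they in 56.7% of all genes tested. The split between higher and lower genes moved with the scaling of the libraries. It was 1452 and 802 after scaling to the total of named genes, which shifted the median of all genes by 0.11. It was 1469 and 876 with limma-voom (shift 0.10), 1615 and 1033 without mitochondrial and the top 10 genes, and 1109 and 1605 after centring on the library median. The counts of list members below stand against these shares, and for abundant genes against those given with chromosome 8. Leaving out 1 library gave 1336 (WT replicate 1), 1633 (WT replicate 2), 1484 (DKO replicate 1) or 1494 (DKO replicate 2) genes.

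**Figure D1:**
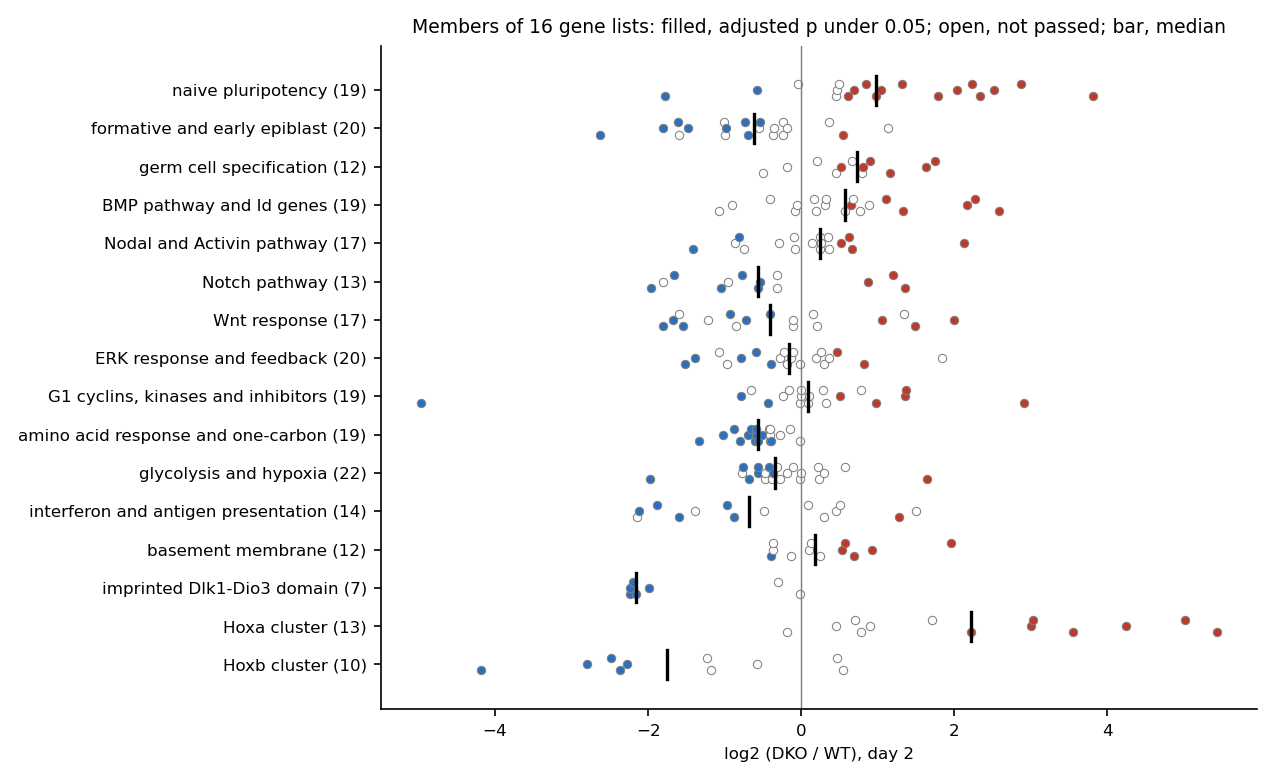
Change at day 2, log2 (DKO over WT), of each tested member of 16 gene lists (number tested in brackets); filled points passed the threshold, open points did not, and black bars are list medians. Most naive, germ cell and Hoxa members lie right of 0, and most amino acid, Dlk1-Dio3 and Hoxb members lie left of it.

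The genes of chromosome 8 stood lower as a block in every DKO library. Among 629 chromosome 8 genes with a mean of at least 100, the median change was -0.32, a level 0.802 times that of WT, and 83.0% were below 0. On the other autosomes and X the medians ran between -0.11 and 0.12, with 47.8% of 10622 genes below 0. On chromosome 8, 204 genes were called lower (32.4%) and 23 higher (3.7%), whereas elsewhere 7.9% were lower and 9.3% higher. The background over all chromosomes at this level was 9.26% lower and 8.99% higher. Of the 204 lower genes, 177 fell less than 2-fold. The shift ran along the chromosome. In 13 windows of 10 Mb the median was between -0.41 and -0.03, the weakest between 40 and 50 Mb. It was the same size in 2i medium (-0.32) and at day 4 (-0.32), while P14 against WT at day 2 gave -0.01. Relative to the mean of 16 libraries, the chromosome 8 median was -0.23 to -0.17 in the 6 DKO libraries. It was 0.08 to 0.13 in the 4 P14 libraries and 0.10 to 0.14 in the 6 WT libraries. DNA was not measured here, and the part of this shift in any result on chromosome 8 was not tested. Without the 1118 genes of chromosome 8 that were tested, the day 2 comparison called 2383 genes, and genes below that lie on chromosome 8 are named as such.

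**Figure D2:**
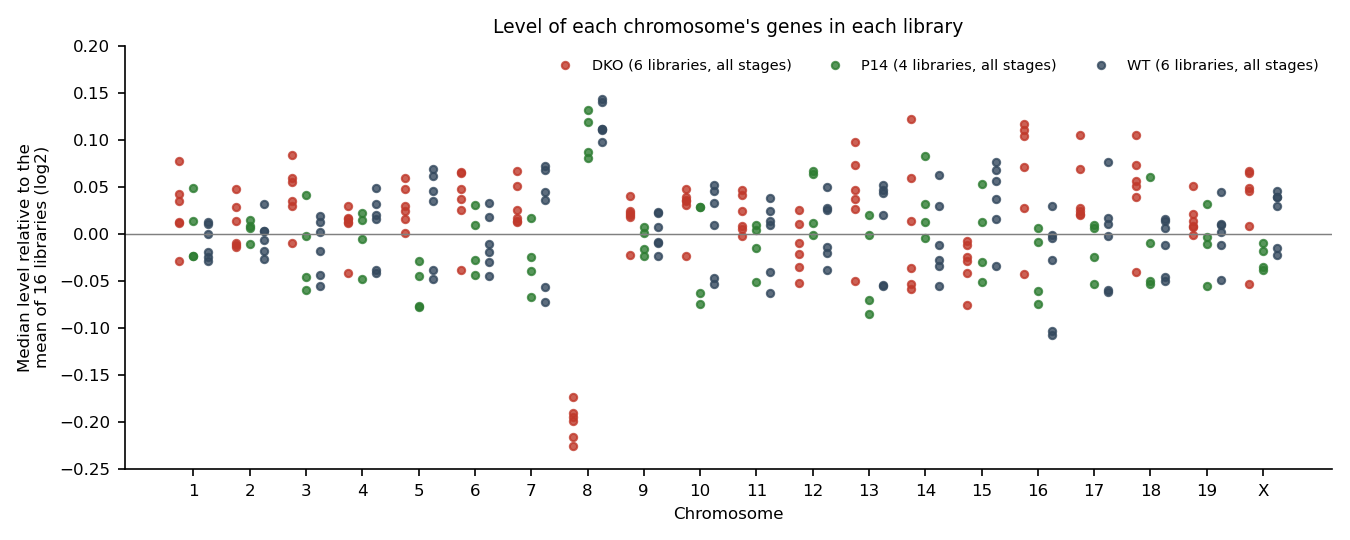
Median level of genes with a mean of at least 100, by chromosome and library, as log2 relative to the mean of all 16 libraries (red DKO, green P14, dark WT). On chromosome 8 the 6 DKO libraries lie between -0.23 and -0.17 and the other 10 between 0.08 and 0.14.

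Most naive pluripotency genes were higher in DKO cells. Of 19 naive pluripotency genes tested, 13 were higher, 2 were lower and the median change was 0.97. Nanog, a core naive factor, had 4777 and 4294 counts in DKO libraries, against 838 and 957 in WT libraries (log2 2.34 ± 0.10, adjusted p = 6.8e-10). Esrrb, an orphan nuclear receptor that keeps naive genes on, had 9153 and 9335 in DKO and 2012 and 1930.0 in WT (2.23 ± 0.10, adjusted p = 1.7e-09). The 2 groups were far apart for both genes and each pair of libraries lay close together. Klf4 stood at 1106 and 1054 in DKO against 215 and 162 in WT (2.52, adjusted p = 3.1e-08), and Tbx3, which acts downstream of PI3K signalling, at 4521 and 4734 in DKO against 1308 and 973 in WT (2.04, adjusted p = 3.1e-08). The largest rise in the list was that of Mras, a RAS-related GTPase gene, with 2766 and 2898 in DKO and 243 and 167 in WT (3.81 ± 0.20, adjusted p = 1.7e-08). Klf5 (1.32) and Tfcp2l1 (1.78) also rose; they are named after their values were seen. Nr5a2 and Manba did not pass (0.45, adjusted p = 0.14, and 0.49, adjusted p = 0.064).

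Not every naive gene followed. The 2 that fell were Klf2 and Gbx2, named here after their values were seen. Klf2, a target of the MEK and ERK pathway whose RNA is low when that pathway is on, had 613 and 508 in DKO libraries, against 2089.5 and 1752 in WT libraries (-1.77 ± 0.14, adjusted p = 9.7e-07); it lies on chromosome 8. Gbx2 had 2601 and 2706 in DKO and 4108 and 3832 in WT (-0.58, adjusted p = 0.00043), and a noncoding gene overlaps it on the other strand. Klf2 was the family member that stood against Klf4 and Klf5. Leaving out chromosome 8, the list counted 12 higher and 1 lower of 17.

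Genes of the formative state were more often lower than higher. Of 20 tested, 8 fell and 1 rose, with a median of -0.62. Pou3f1, which encodes the POU factor OCT6, had 148 and 132 in DKO libraries and 943 and 808 in WT libraries (-2.63 ± 0.21, adjusted p = 7.9e-07). The de novo methyltransferase genes Dnmt3b and Dnmt3a stood at 876 and 771 in DKO against 2591 and 2439 in WT (-1.61, adjusted p = 1.4e-07) and 5865 and 6063 in DKO against 9759.6 and 9551 in WT (-0.69, adjusted p = 0.00039). Lef1, a nuclear partner of β-catenin, had 232 and 181 in DKO and 709 and 730.3 in WT (-1.81, adjusted p = 0.00037). Sox11, a neural SOX factor gene, fell as well (-0.98, adjusted p = 0.00013). Sox4 and Etv4 did not pass (-0.23, adjusted p = 0.2, and 0.37, adjusted p = 0.088). The gene that rose was Tcf15 (0.54, adjusted p = 0.017), named after its value was seen. The Tcf15 call was lost without DKO replicate 1 (adjusted p = 0.079), DKO replicate 2 (adjusted p = 0.099) or WT replicate 2 (adjusted p = 0.17). Fgf5, the textbook marker of this state, was still low, with 44 and 34.1 in DKO and 16.2 and 17.9 in WT (1.14, adjusted p = 0.23). Over the scalings, 7 to 10 members were lower and 1 or 2 higher.

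**Figure D3:**
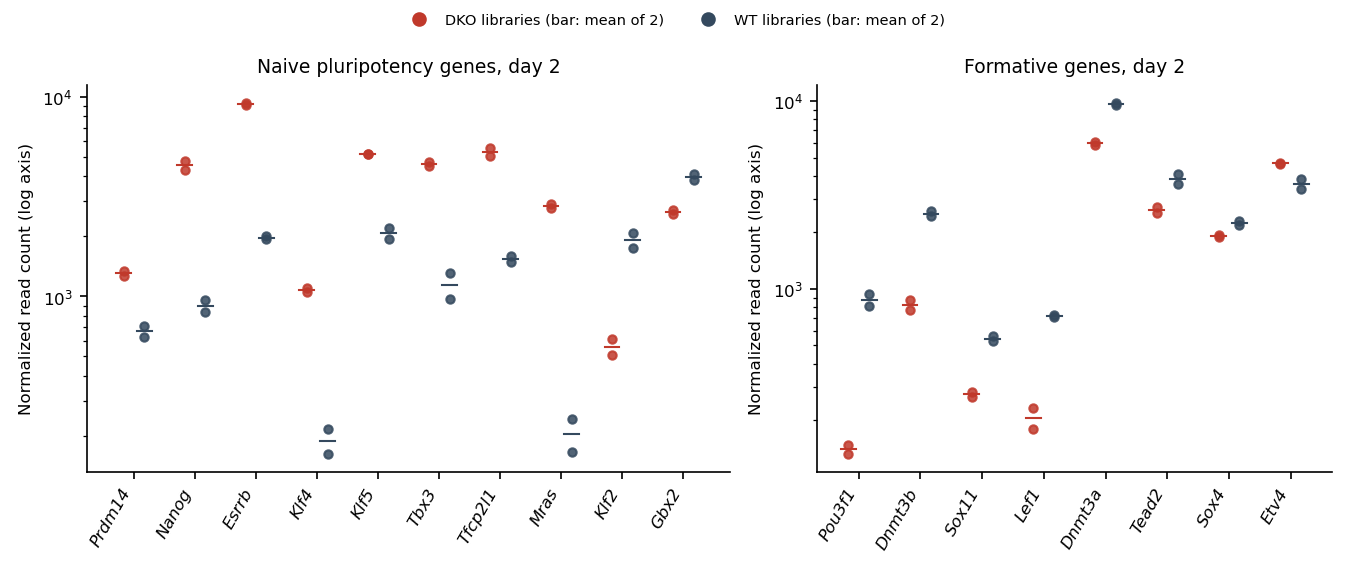
Normalized read counts (log axis) of naive (left) and formative (right) genes at day 2 in the 2 DKO libraries (red) and the 2 WT libraries (dark), with bars at the means. Nanog, Esrrb, Klf4, Klf5, Tbx3, Tfcp2l1 and Mras are higher in both DKO libraries, Klf2 and Gbx2 lower, and the 6 formative genes left of Sox4 lower.

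DNA methylation regulators split. Of 12 tested, 3 rose and 3 fell. The cofactor gene Dnmt3l had 681 and 735 in DKO libraries and 2135 and 2112 in WT libraries (-1.58, adjusted p = 7.8e-06), and fell together with Dnmt3a and Dnmt3b. The members that rose were Tet2, a 5-methylcytosine oxidase gene (0.61, adjusted p = 0.0009), Prdm14 and Zfp57. Zfp57, whose zinc finger protein keeps methylation at imprinting control regions, had 3354 and 2599.8 in DKO and 1394 and 1523 in WT (1.02 ± 0.15, adjusted p = 0.00026). The maintenance genes Trim28 and Uhrf1 did not pass (-0.13, adjusted p = 0.48, and -0.09, adjusted p = 0.65).

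Imprinted genes, which are expressed from the maternal or the paternal copy alone in many tissues, held several of the largest changes of the comparison. Cdkn1c, the maternally expressed gene of the cell cycle inhibitor p57, lies on chromosome 7 from 143458339 to 143461050 (GRCm38). It had 160.5 and 228 counts in DKO libraries, against 6576 and 5476 in WT libraries (-4.96 ± 0.19, adjusted p = 5.4e-10). Phlda2, a growth-restraining neighbour in the same Kcnq1 domain, had 1.83 and 4.26 in DKO and 111 and 101 in WT (-4.79 ± 0.44, adjusted p = 3.4e-06). Slc22a18 (-3.02, adjusted p = 0.014) and Ascl2 (-2.26, adjusted p = 0.016) of that domain were lower too. The Slc22a18 call was lost without DKO replicate 2 (adjusted p = 0.18) or WT replicate 2 (adjusted p = 0.1). The Ascl2 call was lost without DKO replicate 2 (adjusted p = 0.16) or WT replicate 1 (adjusted p = 0.14). Kcnq1ot1, the paternally expressed noncoding RNA that silences the domain in cis, was higher, with 3449 and 2609 in DKO and 1464 and 1881 in WT (0.85, adjusted p = 0.0041). The Kcnq1ot1 call was lost without DKO replicate 1 (adjusted p = 0.073) or WT replicate 1 (adjusted p = 0.075). Of 12 genes tested in the domain, 4 were lower (2 to 4 with 1 library left out) and 1 higher, and Nap1l4 and Cd81, which lie there, did not pass (0.16 and 0.04).

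Grb10, an adaptor gene that restrains insulin and growth factor signalling, lies on chromosome 11 from 11930508 to 12038683 (GRCm38). It had 1321 and 1234 in DKO libraries, against 10165 and 10431 in WT libraries (-3.01 ± 0.09, adjusted p = 4.9e-11), which is the smallest adjusted p against WT among the genes named here. Plagl1, a paternally expressed zinc finger gene on chromosome 10 from 13060504 to 13131694 (GRCm38), moved the other way, with 812 and 631 in DKO and 64.9 and 52.8 in WT (3.59 ± 0.21, adjusted p = 3.9e-08). Other paternally expressed genes that rose were Zrsr1 (598 and 639 in DKO, 203 and 227 in WT, 1.52, adjusted p = 9.3e-06), Peg10 (23236 and 24757 in DKO, 10236 and 9722 in WT, 1.27, adjusted p = 9.6e-05) and Nnat (1.01, adjusted p = 0.00079). Mest and Peg3 did not pass (0.31, adjusted p = 0.067, and 0.26, adjusted p = 0.11). H19 had 17.4 and 13.7 in DKO and 105 and 112 in WT (-2.74, adjusted p = 0.02), and its paternally expressed neighbour Igf2 320.0 and 292 in DKO and 485 and 434 in WT (-0.58, adjusted p = 0.014). Both were lower. The H19 call was lost without DKO replicate 1 (adjusted p = 0.077), DKO replicate 2 (adjusted p = 0.12), WT replicate 1 (adjusted p = 0.1) or WT replicate 2 (adjusted p = 0.098). The Igf2 call was lost without DKO replicate 2 (adjusted p = 0.11) or WT replicate 1 (adjusted p = 0.13). The Igf2 call was also lost with limma-voom (adjusted p = 0.066).

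In the Dlk1-Dio3 domain on chromosome 12, 5 of 7 genes were lower and 0 higher, with a median of -2.16, and 3 to 5 were lower with 1 library left out. The maternally expressed noncoding genes Rian (179 and 146 in DKO, 749.9 and 781 in WT, -2.24 ± 0.14, adjusted p = 9.9e-08), Mirg (-2.23, adjusted p = 5.2e-05) and Meg3 (-1.99, adjusted p = 7.5e-05) fell by like amounts. So did the paternally expressed Rtl1 (-2.20, adjusted p = 0.0043), which antisense miRNA genes overlap, so that its reads cannot be assigned with certainty. Without DKO replicate 2, the adjusted p of Rtl1 was 0.068. Dlk1 and Begain did not pass (-0.31, adjusted p = 0.78, and -0.02, adjusted p = 0.99). Divided by their textbook allele, a division made after the values were seen, 10 of 15 maternally expressed genes were lower and 1 higher (median -2.24). Of 24 paternally expressed genes, 7 were higher and 3 lower (0 to 3 with 1 library left out, 1 to 3 over the scalings; median -0.01, a sign that turned under other scalings). Alleles were not measured, so these values are sums over both copies.

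The promoters of 3 imprinted genes with a called change are shown. They were picked because each holds TGCCGC, the hexamer bound by ZFP57 when methylated, here in capitals on either strand (GCGGCA is its complement). Of 39 imprinted genes tested, 32 have a listed promoter, and the share of these with the hexamer is not given here. The sequences are those of RefSeq (GRCm38.p6), 250 bases before to 50 after a start, on the gene's strand, 5′ to 3′. Plagl1 is chr10:13090582-13090881 (plus strand), Grb10 chr11:12037371-12037670 (minus strand) and Nnat chr2:157559828-157560127 (plus strand).
Plagl1: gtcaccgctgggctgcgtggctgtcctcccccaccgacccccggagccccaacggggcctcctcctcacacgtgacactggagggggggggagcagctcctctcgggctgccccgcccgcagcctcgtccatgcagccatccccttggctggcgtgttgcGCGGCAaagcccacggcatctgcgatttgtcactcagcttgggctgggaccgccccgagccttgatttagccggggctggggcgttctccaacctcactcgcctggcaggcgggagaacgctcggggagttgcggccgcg
Grb10: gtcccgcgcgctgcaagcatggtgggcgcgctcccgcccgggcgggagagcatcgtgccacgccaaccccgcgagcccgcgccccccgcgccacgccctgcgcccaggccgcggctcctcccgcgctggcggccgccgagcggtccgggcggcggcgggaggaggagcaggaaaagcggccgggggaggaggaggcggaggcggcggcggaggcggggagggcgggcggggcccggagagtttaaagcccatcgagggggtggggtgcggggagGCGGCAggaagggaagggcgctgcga
Nnat: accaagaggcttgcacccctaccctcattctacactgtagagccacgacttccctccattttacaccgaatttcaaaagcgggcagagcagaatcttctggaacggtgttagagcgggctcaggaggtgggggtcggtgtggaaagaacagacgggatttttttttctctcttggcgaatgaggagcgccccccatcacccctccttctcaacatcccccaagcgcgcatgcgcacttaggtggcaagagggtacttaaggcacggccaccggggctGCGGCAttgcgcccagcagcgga
They hold 26, 45 and 17 CpG dinucleotides, against a median of 20 over tested genes with a listed promoter, so that Nnat lies below it, and of 7 over all 32851 promoters in the table, of which 11.6% hold the hexamer. Among tested genes with a listed promoter, 20.4% of 920 higher genes, 19.4% of 1037 lower genes and 19.3% of all 12719 hold it. Phlda2 has 26 CpG dinucleotides and no match in its window. A match is a description of the letters and not a bound site.

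**Figure D4:**
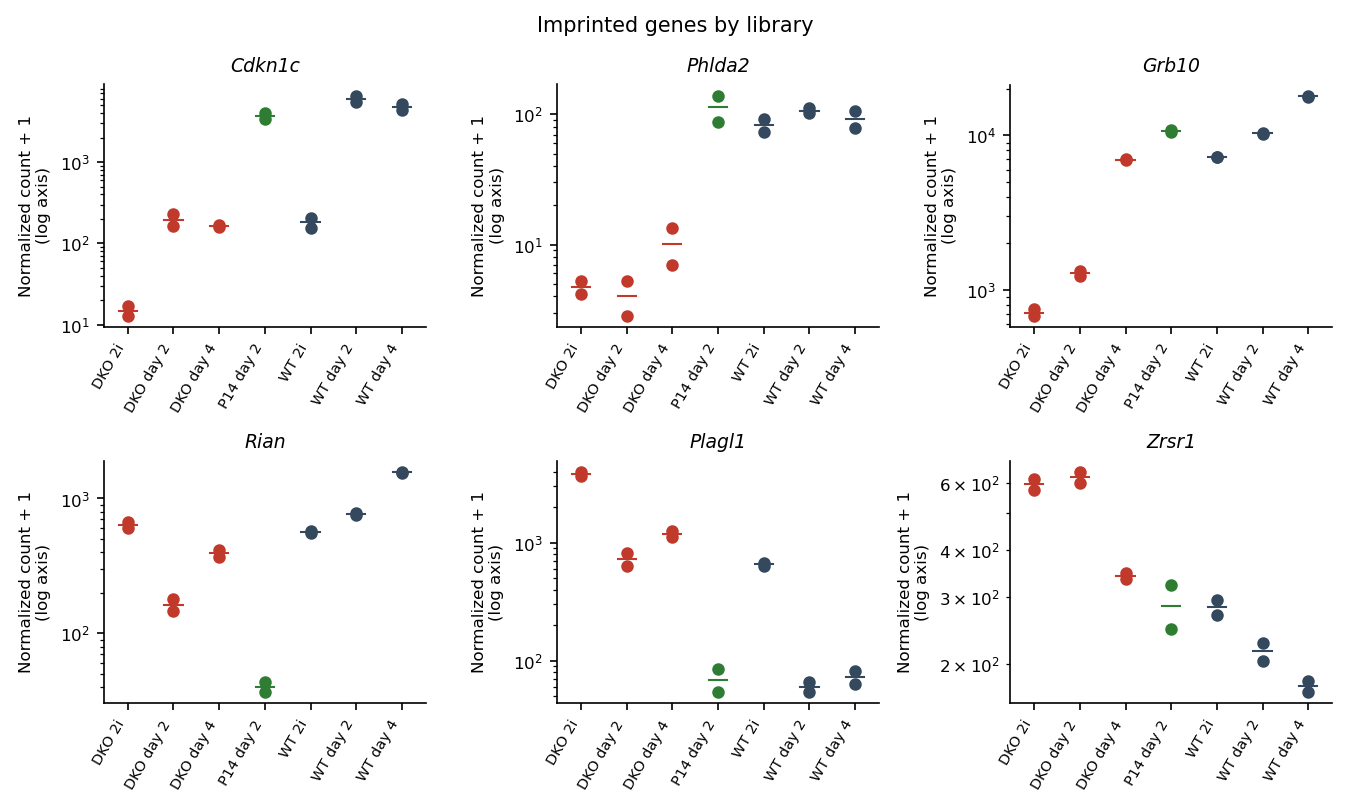
Normalized read count plus 1 (log axis) of 6 imprinted genes in each library of the DKO (red), P14 (green) and WT (dark) groups by stage, with bars at group means. Cdkn1c, Phlda2 and Grb10 are lower in DKO than in WT libraries at every stage, Rian at day 2 and day 4, and Plagl1 and Zrsr1 are higher at every stage.

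Hox genes, which pattern the body axis and are kept silent in pluripotent cells by Polycomb, divided by cluster. Of 13 genes tested in the Hoxa cluster, which here includes Evx1 and Hoxa11os, 7 were higher and 0 lower (median 2.22). Hoxa11 had 293 and 267 in DKO libraries and 4.33 and 13.2 in WT libraries (5.01 ± 0.51, adjusted p = 8.1e-06). The antisense gene Hoxa11os overlaps it and stood at 254 and 197 in DKO against 2.16 and 7.54 in WT (5.43, adjusted p = 3.8e-06). Their reads cannot be told apart, because the strand setting of the counting is not given. Hoxa10 had 1099 and 1139 in DKO and 144 and 130.1 in WT (3.02, adjusted p = 1.3e-07), Hoxa9 499 and 405 in DKO and 35.7 and 39.6 in WT (3.54, adjusted p = 0.001), and Hoxa7 733 and 756 in DKO and 187 and 136 in WT (2.22, adjusted p = 1.1e-06). Hoxa5 did not pass (0.71, adjusted p = 0.12). The called genes were Hoxa6, Hoxa7, Hoxa9, Hoxa10, Hoxa11, Hoxa11os and, beyond Hoxa13, Evx1. The Hoxa6 call was lost without WT replicate 2 (change 2.12).

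In the Hoxc cluster 7 of 9 genes were higher (fitted median 2.98, or 2.25 with the gene without WT reads at its bound), and in the Hoxd cluster 6 of 10 (2.18, or 1.95 likewise). With 1 library left out, 4 to 6 Hoxc and 2 to 4 Hoxd calls were left. Hoxc10 had 69.7 and 99.8 in DKO and 0 and 3.77 in WT (5.27, adjusted p = 9.3e-05), and Hoxc5, whose exons overlap it on the same strand, 143 and 161 in DKO and 5.41 and 11.3 in WT (4.11, adjusted p = 4.4e-06). Hoxd9 had 42.2 and 35.8 in DKO and 6.49 and 7.54 in WT (2.32, adjusted p = 0.0031). The Hoxb cluster went the other way, with 0 of 10 higher and 5 lower (median -1.75). Hoxb1, which early retinoic acid signalling switches on, had 5.5 and 14.5 in DKO libraries and 190.5 and 172 in WT libraries (-4.18 ± 0.76, adjusted p = 0.0018). Hoxb2 had 32.1 and 35 in DKO and 198 and 158 in WT (-2.37, adjusted p = 0.00095). Hoxb6 lost its call with a replicate block (adjusted p = 0.058), a pseudocount of 0.1 (0.36) or scaling to named genes (0.07). That call was also lost without mitochondrial and top 10 genes (0.058) or with any 1 library left out. Hoxb8 lost its call with limma-voom (0.07), only the groups compared (0.059) or that pseudocount (0.1). Its call was also lost without DKO replicate 1, WT replicate 1 or WT replicate 2. Hoxb1 and Hoxb3 lost theirs with that pseudocount (0.059 and 0.056), and Hoxb3 also with any 1 library left out. Hoxb9 did not pass (0.47, adjusted p = 0.31). With a pseudocount of 0.1, 1 Hoxb gene was lower, and with 1 library left out, 2 or 3. Of 12 members of the Polycomb complex PRC2, 2 were higher, Aebp2 (0.51, adjusted p = 0.0075) and Eed (0.35, adjusted p = 0.041), and 0 lower (1 to 3 higher over the scalings). The Aebp2 call was lost without DKO replicate 1 (adjusted p = 0.063) or WT replicate 2 (adjusted p = 0.056). The Eed call was lost without DKO replicate 1 (adjusted p = 0.14), DKO replicate 2 (adjusted p = 0.17), WT replicate 1 (adjusted p = 0.27) or WT replicate 2 (adjusted p = 0.068).

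**Figure D5:**
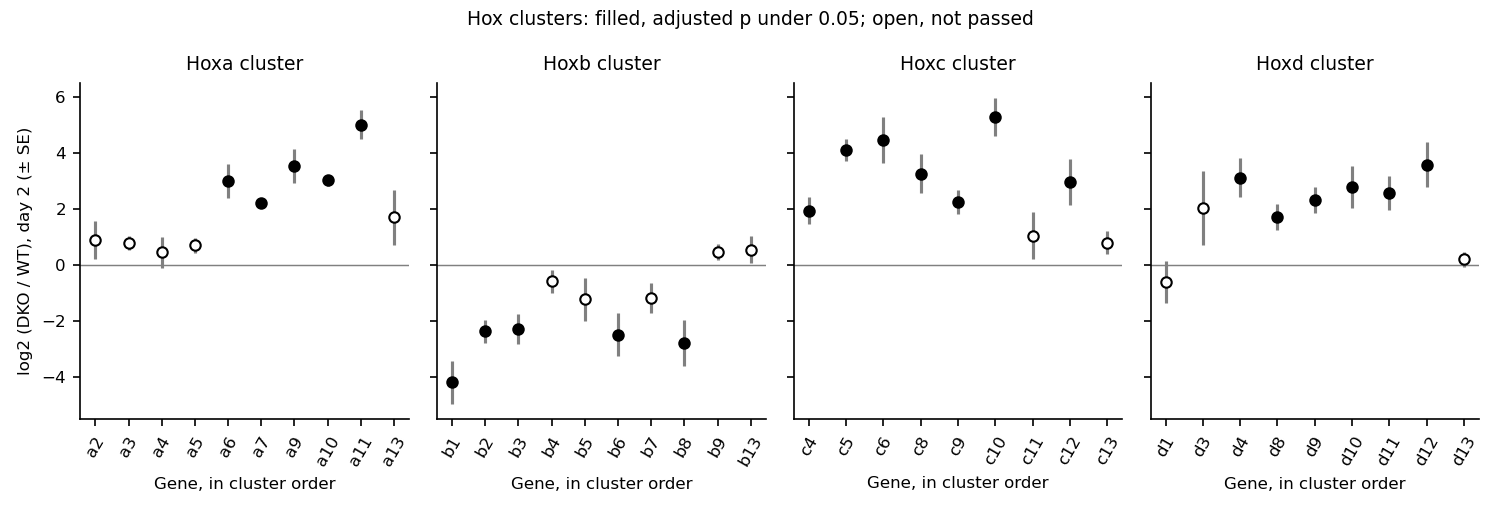
Change at day 2, log2 (DKO over WT) ± SE, of the Hox genes shown, in cluster order; filled points passed the threshold and open points did not. Hoxa6 to Hoxa11, most Hoxc and several Hoxd genes are above 0, and Hoxb1, Hoxb2, Hoxb3, Hoxb6 and Hoxb8 below it.

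Genes that govern entry into S phase moved in both directions. Of 19 G1 cyclins, kinases and inhibitors, 5 were higher (3 to 5 with 1 library left out) and 3 lower. Ccnd2, the gene of cyclin D2, had 2364 and 2596 in DKO libraries and 331 and 329 in WT libraries (2.90 ± 0.11, adjusted p = 4.9e-10). Cdk6, its kinase partner, stood at 690.5 and 692 in DKO against 235 and 303 in WT (1.37, adjusted p = 1.2e-05), and Ccnd3 at 6915 and 7732 in DKO against 3817 and 3586 in WT (0.98, adjusted p = 0.00026). Ccnd1 fell, with 748 and 736 in DKO and 1289.9 and 1279.8 in WT (-0.79, adjusted p = 0.00022). The D-type cyclins therefore did not move one way. Cdk4 and Ccne1 did not pass (-0.17, adjusted p = 0.35, and -0.24, adjusted p = 0.12). The RNA-binding protein gene Lin28a, which blocks let-7 processing, had 1183 and 1359 in DKO and 4347 and 4053 in WT (-1.73 ± 0.11, adjusted p = 6.5e-08), and Lin28b fell less (-0.63, adjusted p = 0.0083). The Lin28b call was lost without DKO replicate 2 (adjusted p = 0.07) or WT replicate 2 (adjusted p = 0.095). Hmga2, a let-7 target, rose (1.00, adjusted p = 7.2e-05). In the Myc and Max network, Mycl (-1.39, adjusted p = 1.7e-05) and Myc (-0.40, adjusted p = 0.041) fell and 0 of 12 rose (1 or 2 fell over the scalings). The Myc call was lost without DKO replicate 1 (adjusted p = 0.19), DKO replicate 2 (adjusted p = 0.12), WT replicate 1 (adjusted p = 0.24) or WT replicate 2 (adjusted p = 0.091).

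The Nodal and Activin list had 4 higher (2 or 3 with 1 library left out) and 2 lower of 17 (2 to 4 under other settings). Inhbb, the gene of the activin B subunit, had 2670.2 and 2545 in DKO libraries and 309 and 270.5 in WT libraries (3.17 ± 0.12, adjusted p = 5.4e-10); it stands outside the lists and was chosen after its value was seen. Smad7, an inhibitor induced by the same receptors, had 2257 and 2085 in DKO and 514 and 479.7 in WT (2.12, adjusted p = 1.7e-08). Foxh1, a DNA-binding partner of SMAD2 and SMAD3, fell to 547 and 579 in DKO, against 1553 and 1455 in WT (-1.42, adjusted p = 3.7e-05). Tdgf1, the Nodal coreceptor gene, did not pass (0.36, adjusted p = 0.17). Of 19 BMP pathway and Id genes, 6 were higher and 0 lower (median 0.57). Id3 had 174 and 134 in DKO and 61.7 and 15.1 in WT (2.28, adjusted p = 0.0014), with the 2 WT libraries far apart. Bmp2 had 21.1 and 15.3 in DKO and 2.16 and 4.71 in WT (2.16, adjusted p = 0.012). The Bmp2 call was lost without DKO replicate 1 (adjusted p = 0.1) or WT replicate 1 (adjusted p = 0.12). Leaving out 1 library left 2 to 4 of the 6 BMP calls.

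Notch signalling genes moved in both directions. The effector Rbpj, the DNA-binding partner of cleaved Notch, had 6815 and 6915 in DKO libraries and 3699 and 3783 in WT libraries (0.88 ± 0.08, adjusted p = 3.3e-06), and its target Hes1 482 and 506 in DKO and 236 and 196 in WT (1.20, adjusted p = 0.00056). The ligand gene Dll1 had 69.7 and 102 in DKO and 321 and 346 in WT (-1.97, adjusted p = 0.00058). The receptor genes Notch4 (1.36, adjusted p = 0.00064) and Notch3 (-0.57, adjusted p = 0.0021) went opposite ways, and the Notch3 call was lost with limma-voom (adjusted p = 0.055). Of 13 members, 3 were higher and 6 lower (median -0.57). The lower count was 2 to 6 over the scalings and 4 or 5 with 1 library left out. In the Wnt response list 3 were higher and 6 lower of 17 (3 to 6 lower over the scalings, 1 to 4 with 1 library left out). Notum, which encodes a secreted Wnt inhibitor, had 1879.8 and 1520.0 in DKO and 429 and 418 in WT (2.00, adjusted p = 9.9e-06), while Lef1 fell. Among ERK response genes, 2 were higher and 5 lower of 20 (10% and 25%). Leaving out chromosome 8, 2 were higher and 3 lower of 18. Dusp4, on chromosome 8, had 909 and 943 in DKO and 2884 and 2462 in WT (-1.52, adjusted p = 4e-07). Dusp6 was not past the threshold (0.19, adjusted p = 0.25). Over the scalings 2 to 4 ERK response genes were higher and 3 to 5 lower, and 2 or 3 were lower with 1 library left out. In the LIF and STAT3 list, Stat3 (0.88, adjusted p = 4.9e-05) and Lifr (0.69, adjusted p = 0.00027) rose and Socs2 fell (-1.18, adjusted p = 1e-05), with 4 higher and 3 lower of 15.

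Genes of amino acid supply fell together. Of 19 tested genes of the amino acid response and one-carbon metabolism, 14 were lower and 0 higher, with a median of -0.57, and 10 to 14 were lower under the other scalings. Gldc, which encodes the glycine decarboxylase of the glycine cleavage system, had 876 and 951 in DKO libraries and 2257 and 2353 in WT libraries (-1.34 ± 0.10, adjusted p = 3.8e-07). Phgdh, the gene of the first enzyme of serine synthesis, had 4855 and 5451 in DKO and 9741 and 9153 in WT (-0.88, adjusted p = 4.3e-05). Chac1, a glutathione-degrading enzyme gene induced by ATF4, stood at 754 and 836 in DKO against 1709.7 and 1532 in WT (-1.03, adjusted p = 6.1e-05), and Trib3, likewise induced, at 1027 and 1041 in DKO against 1656 and 1696 in WT (-0.70, adjusted p = 0.0005). Groups did not overlap for these 4 genes, which holds for every called gene. Asns and Slc7a1 did not pass (-0.40, adjusted p = 0.058, and -0.28, adjusted p = 0.16). Asns passed with a replicate block (adjusted p = 0.045) and with only the groups compared (adjusted p = 0.02). Leaving out 1 library left 9 to 11 of the 14 calls.

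Of 22 glycolysis and hypoxia genes, 7 were lower (3 to 5 with 1 library left out) and 1 higher, with a median of -0.34. Slc16a3, a lactate exporter gene, had 311 and 358 in DKO and 1320.2 and 1313 in WT (-1.98, adjusted p = 1.6e-06). Ldha (-0.77, adjusted p = 0.00022) and Pkm (-0.56, adjusted p = 0.0074) fell by less. The Pkm call was lost without DKO replicate 1 (adjusted p = 0.063) or WT replicate 1 (adjusted p = 0.085). The glucose transporter gene Slc2a3 was the member that rose, with 11584 and 11702 in DKO and 3670.4 and 3803 in WT (1.64 ± 0.10, adjusted p = 3.9e-08). Slc2a1 did not pass (0.23, adjusted p = 0.19). Cytoplasmic ribosomal protein genes had 14 of 82 lower and 0 higher, with a median of -0.26. That count ran from 6 to 18 over the scalings and from 0 to 7 with 1 library left out.

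At the cell surface, the adhesion and epithelial list had 2 higher and 4 lower of 20 (10% and 20%; 2 or 3 lower with 1 library left out), and 4 of its members lie on chromosome 8. Cdh1, the gene of E-cadherin on chromosome 8, had 2112 and 2159.7 in DKO libraries and 6394 and 5870.3 in WT libraries (-1.52 ± 0.13, adjusted p = 1.8e-06). Epcam fell less (-0.91, adjusted p = 0.00047), while Itga5, a fibronectin receptor subunit gene, rose (0.88, adjusted p = 0.00011). Of 12 basement membrane genes, 5 were higher (3 or 4 with 1 library left out) and 1 lower. Nid1, which encodes the linker protein nidogen, had 2204 and 2045 in DKO and 512 and 581 in WT (1.96, adjusted p = 3.9e-08), and Nid2 (0.69) and Hspg2 (0.93) rose too. Leaving out chromosome 8, 3 of 10 basement membrane genes were higher and 1 lower. Of 19 ephrins and Eph receptors, 3 were higher and 4 lower, and of 33 collagens 2 were higher and 5 lower (2 to 4 lower with 1 library left out). The ephrin receptor gene Epha1 had 30.3 and 24.7 in DKO and 235 and 229.9 in WT (-3.04, adjusted p = 8.1e-07), and the collagen gene Col6a5 25.7 and 38.4 in DKO and 364 and 316 in WT (-3.39, adjusted p = 5.1e-06). Interferon and antigen presentation genes had 5 of 14 lower (3 to 5 with 1 library left out) and 1 higher, with the MHC class I gene H2-K1 at 259.5 and 205 in DKO and 624 and 782 in WT (-1.60, adjusted p = 4.5e-06) and Bst2, an interferon-induced antiviral gene on chromosome 8, at 96.3 and 64.8 in DKO and 280.3 and 310.0 in WT (-1.89, adjusted p = 1.3e-05).

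Among 12 germ cell specification genes, 6 rose and 0 fell, with a median of 0.73. Fewer of these rises were called with any 1 library left out. Kit, a receptor gene of germ cell precursors, had 2974 and 2733 in DKO libraries and 1267 and 1283 in WT libraries (1.16 ± 0.09, adjusted p = 3.7e-07). Prdm1, whose product BLIMP1 starts the germ cell program, had 97.2 and 114 in DKO and 28.1 and 39.6 in WT (1.63, adjusted p = 0.0011), and the PRDM14 corepressor gene Cbfa2t2 1946 and 1929 in DKO and 1041 and 1181 in WT (0.81, adjusted p = 6.3e-05). Tfap2c, which acts with them, did not pass (-0.19, adjusted p = 0.5). Later germline genes held silent by DNA methylation had 5 lower and 1 higher of 23, and retinoic acid genes 5 lower and 2 higher of 15. With 1 library left out, 1 to 3 and 3 or 4 of these falls were left, and over the scalings 3 to 5 retinoic acid genes were lower. Stra8, a meiotic gene induced by retinoic acid, had 1850.5 and 2154 in DKO and 5574 and 5936 in WT (-1.53, adjusted p = 0.00017).

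Markers of other cell types were low or divided. The 8 measured primitive endoderm markers summed to 1660 and 1736 in DKO and 1690 and 1420 in WT, with 1 lower, Hnf4a (0 and 3.41 in DKO, 26 and 20.7 in WT). The Hnf4a call was lost without DKO replicate 1 (adjusted p = 0.2), WT replicate 1 (adjusted p = 0.12) or WT replicate 2 (adjusted p = 0.073). The 4 measured streak markers summed to 330 and 313 in DKO and 250 and 268 in WT, with 0 passing limma's threshold. The 5 measured trophectoderm markers summed to 176 and 130 in DKO and 152 and 130.1 in WT, with 1 higher and 1 lower. The 4 measured fibroblast and feeder markers summed to 12.8 and 16.2 in DKO and 46.5 and 78.2 in WT, with 2 lower. Of these 4, Col1a1 and Col1a2 were under 10 in both groups. The 5 neuroectoderm markers summed to 503 and 505 in DKO and 1014 and 808 in WT, most of it Sox1, with 436 and 436 in DKO and 931 and 709.6 in WT, which lies on chromosome 8 and fell (-0.90, adjusted p = 0.0046). Without WT replicate 1, the adjusted p of Sox1 was 0.083. Within the wider lineage lists, Sox21 had 381 and 351 in DKO and 59.5 and 60.3 in WT (2.59, adjusted p = 5.4e-08) and Kdr, a VEGF receptor gene, 294 and 288 in DKO and 23.8 and 30.2 in WT (3.39, adjusted p = 5.3e-06). These 2 genes were not typical of such lists. The wider neuroectoderm list had 2 higher and 2 lower of 13 (fitted median -0.42). The streak and early mesoderm list had 2 higher and 0 lower of 12 (fitted median -0.19). The part of any other cell type in these results was not tested.

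Among the 15 largest rises with a mean of at least 10, 6 were genes of the Hoxa and Hoxc clusters or the adjoining Evx1. Msc, a bHLH repressor gene that lies on chromosome 1 as Prdm14 does, had 782 and 767 in DKO libraries and 73.6 and 34.9 in WT libraries (3.91, adjusted p = 5e-07). The homeobox gene Vax2 had 365 and 372 in DKO and 33.5 and 22.6 in WT (3.69, adjusted p = 1.7e-07), its neighbour Vax2os 191 and 119 in DKO and 8.66 and 1.88 in WT (4.84), and Nkx6-3, on chromosome 8, 352 and 303 in DKO and 17.3 and 28.3 in WT (3.82, adjusted p = 0.00011). Evx1 and Bhmt2 had 0 reads in both WT libraries. With those libraries at 3 reads, they were at least 6.01-fold and 4.96-fold higher in DKO. The Evx1 call was lost without DKO replicate 1 (adjusted p = 0.071) or WT replicate 1 (adjusted p = 0.054).

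The largest falls, besides Cdkn1c, Phlda2 and Hoxb1, were mostly in lowly expressed genes. Tmem151a had 0 reads in both DKO libraries, against 31.4 and 33 in WT libraries, and was at least 12.1-fold lower with the DKO libraries at 3 reads each. Ovol2, an epithelial zinc finger gene, was likewise at least 5.41-fold lower (0 in both DKO libraries, 10.8 and 17.9 in WT). Vrtn had 3.67 and 6.82 in DKO and 123 and 87.6 in WT (-4.12, adjusted p = 0.00073), and Pld4 1.83 and 5.12 in DKO and 73.6 and 69.7 in WT (-4.12, adjusted p = 0.00097). At higher levels, the calcium channel subunit gene Cacnb3 had 315 and 299 in DKO and 1463 and 1401 in WT (-2.22, adjusted p = 1.7e-08) and Jade2 98.1 and 108 in DKO and 605 and 586 in WT (-2.52, adjusted p = 5.6e-08); both were chosen after their values were seen.

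The day 2 difference was set beside those before and after it. Of the 2707 day 2 calls, 719 were also called in the same direction in 2i medium, which is 26.6% of the day 2 calls and 38.7% of the 1859 calls in 2i, and 74 were called in the opposite direction. At day 4 the same direction held for 810, which is 29.9% of the day 2 calls and 27.5% of the 2950 calls at day 4, and 181 were opposite. Over all 21450 genes tested, 1859 were called in 2i and 2950 at day 4. Of the 719, 264 were higher and 455 lower, and of the 810, 414 were higher and 396 lower. Chromosome 8 genes were shifted down in 2i, at day 2 and at day 4, and their part in these overlaps was not tested. Between 2i and day 2, the DKO difference itself changed for 801 genes (3.73% of those tested), 519 upwards (2.42%) and 282 downwards (1.31%). Of the 19 naive genes, 13 had such a change. Nanog differed by 0.24 in 2i, 2.34 at day 2 and 4.92 at day 4, and both steps were called (adjusted p = 8.2e-07 and 3.1e-08). Ccnd2 averaged 785 in DKO and 723 in WT cells in 2i, 2480.1 and 330.0 at day 2, and 1064 and 1096 at day 4. Its difference therefore stood at 0.12, 2.90 and -0.04 in turn, with both steps called (adjusted p = 2.8e-07 and 3.1e-08). Hoxa, Hoxc and Hoxd genes were already higher in DKO cells in 2i. There 8 of 13, 5 of 9 and 3 of 10 were called higher (medians 1.79, 2.39 and 1.28). Between 2i and day 2 the difference changed for 1, 1 and 0 of these genes. In the Hoxb cluster 1 of 10 was higher and 0 lower in 2i (median 0.0), and 1 changed.

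The imprinted genes had different courses. Cdkn1c was already lower in DKO cells in 2i (-3.61) and stayed so at day 4 (-4.87), and Plagl1 was higher at both stages (2.54 and 4.05). Grb10 differed by -3.34 in 2i and -1.36 at day 4, and its change from day 2 to day 4 was called (1.65, adjusted p = 1.9e-06). Rian averaged 635 in DKO and 562 in WT cells in 2i, a difference that did not pass (0.17, adjusted p = 0.58), so that its fall was seen from day 2 on (change -2.41, adjusted p = 2.1e-05). From day 2 to day 4 the DKO difference changed for 1845 genes (8.6%), 972 upwards (4.53%) and 873 downwards (4.07%). In the amino acid list 16 of 19 genes changed in this way. Chac1 moved by 2.58 (adjusted p = 7.5e-07) and Trib3 by 2.39 (adjusted p = 2.6e-07), and at day 4 the list had 10 higher and 2 lower genes.

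Set directly against P14 cells at day 2, DKO cells differed in 3407 genes (15.9%), 1722 higher (8.03%) and 1685 lower (7.86%). Prdm14 averaged 1309.8 in DKO and 10852 in P14 libraries (-3.05, adjusted p = 5.2e-10). Nanog was higher in DKO cells, with 4777 and 4294, against 1671 and 1727 in P14 libraries (1.42, adjusted p = 1e-07). Cdkn1c (-4.25, adjusted p = 1.3e-09) and Grb10 (-3.06, adjusted p = 2.5e-11) were lower than in P14 cells too. Rian was higher in DKO, with 179 and 146, against 42.9 and 35.6 in P14 libraries (2.02, adjusted p = 2.2e-07), and both groups were below WT. Of the amino acid genes, 17 of 19 were lower in DKO than in P14 cells and 0 higher. In the Hoxb cluster 2 of 10 genes were higher in DKO than in P14 cells and 0 lower, and 9 of 10 were lower in P14 than in WT cells. For Dnmt3b the DKO and P14 values did not differ past the threshold (-0.01, adjusted p = 0.98). Against WT, P14 cells had 8 lower and 1 higher of 20 formative genes, and 9 higher and 2 lower of 19 naive genes. These counts use the same WT libraries as those of DKO cells, and do not show whether the same genes were called. The share of all genes called in P14 against WT is not given here, so these counts and the Hoxb count have no background beside them. Against P14, DKO cells had 5 formative genes higher and 3 lower (median 0.04). Of the naive genes, 12 were higher in DKO than in P14 cells and 3 lower (median 0.585).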

How the data were processed

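RNA from 16 libraries of E14tg2a cells in 8 groups of 2 was sequenced. Stranded libraries were made, per the labels' protocols. Trim Galore, HISAT2, featureCounts and the builds mm10 and GRCm38 are named in the submitters' processing notes, with no version or setting given in the sources used here. As deposited by the authors, each value is the log2 of a normalized count plus 4. Values were returned to normalized counts, and whole reads were recovered for 100% of values under 1000 reads (tolerance 0.1 read). Entries without a symbol held 7.61% to 11.1% of reads and were left out.

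Log2(normalized count + 1) was fitted with limma 3.58.1 (R 4.3.3) over all 16 libraries with 8 group means and a trended variance. Genes needed a value of at least 1 in 2 libraries. Tests were two-sided with Benjamini-Hochberg adjustment over 21450 genes and a threshold of 0.05. Adjusted p-values come from this fit unless another setting or a left-out library is named. The fit was tested on simulated data first. Total depth was 20696437 to 32711215 reads. Replicates of a group correlated at 0.970 to 0.983. Fold bounds set libraries at 0 to 3 reads each, and cover counting error only.

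Members, lists and rules were chosen with earlier results of these data known. The genes named were Prdm14, the 15 largest rises and falls that passed (mean of 10 or more in 1 group), and, per list, up to 5 passing genes with the smallest adjusted p and up to 2 others with the highest mean. For differences between stages and against P14 they were the 5 largest of each sign. The text names a subset of these, a few being not reported here, and marks others as chosen after their values were seen. Alternatives were other pseudocounts, filters, scalings, limma-voom, a replicate block, only the groups compared, each library left out and chromosome 8 left out. Gene positions are from GENCODE M21 and promoters from RefSeq GRCm38.p6.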

Additional observations from a re-analysis of the deposited data

Results flagged for a closer look

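The DKO minus WT difference at day 2 differed from that at another stage, by limma's interaction test, for the genes below, taken from the 5 largest changes of each sign. The changes are log2 values fitted with a pseudocount of 1. Where a group had 0 reads they depend on that pseudocount and are no measure of fold.

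Between 2i and day 2 the difference moved up by 4.92 for Casq2, by 4.62 for Cldn18, by 4.36 for Vax2os, by 4.22 for Chst8 and by 4.20 for Pnp2. Vax2os averaged 203 in DKO and 146 in WT cells in 2i, and 155 and 5.27 at day 2 (adjusted p = 0.0015). The change was -5.99 for Ntrk2, a neurotrophin receptor gene, -4.75 for Crabp2, a retinoic acid binding protein gene, -4.15 for Hoxb1, -3.92 for Wt1 and -3.90 for Psmb9. Ntrk2 had 16.5 and 12.8 in DKO libraries and 124 and 123 in WT libraries at day 2 (adjusted p = 8.8e-05), and 0 in both WT libraries in 2i. With 1 of 8 libraries left out in turn, the change from 2i to day 2 was lost in 8 of 8 fits for Casq2, 7 for Cldn18 and 6 each for Chst8 and Hoxb1. Of 14 other settings, the day 2 difference itself was lost in 7 for Chst8 (adjusted p = 0.057 with a replicate block), 5 for Psmb9, 4 for Cldn18, 3 for Casq2 and 1 each for Crabp2 and Hoxb1. Wt1, a zinc finger gene, had 125 and 103 in DKO and 738 and 730.3 in WT at day 2 (adjusted p = 0.0079).

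Between day 2 and day 4 the difference moved up by 5.56 for Dmrtc2, by 4.84 for Edn2, by 4.66 for Tmem151a and by 4.11 for Tmem252. The change was -6.36 for Mir2139, -6.02 for Klhdc7a, -5.59 for Cldn18, -5.21 for Lbh and -5.20 for Exoc3l4. Klhdc7a had 359 and 322 in DKO and 49.8 and 41.5 in WT at day 2, and averaged 53.7 in DKO and 481 in WT at day 4 (adjusted p = 1.3e-09). With 1 of 8 libraries left out in turn, the change from day 2 to day 4 was lost in 6 fits each for Edn2 and Tmem252. The day 2 difference itself was lost in 8 of 13 other settings for Dmrtc2, and in 7 of 14 for Mir2139, 6 for Lbh, 4 for Tmem252, 3 for Edn2 and 1 for Exoc3l4. For Klhdc7a, the order of the groups was opposite at the 2 stages. Mir2139 lies in an exon of Klhdc7a on the same strand, so the 2 entries share their source. Cldn18 appears in both sets, with 11 and 27.3 in DKO and 0 and 4.71 in WT at day 2.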

How the results depend on the processing

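Other settings kept the day 2 total within 1.5 times of 2707, except leaving out 1 library, which gave 1336 to 1633 genes (692 to 840 higher, 603 to 793 lower). Scaling to the total of named genes called 802 lower genes and limma-voom 876. For the change from 2i to day 2, 143 and 115 genes were lower under these settings, and leaving out 1 library gave 453 to 556 genes (295 to 378 higher, 125 to 233 lower). For day 2 to day 4, the same settings called 466 and 489 higher genes, and leaving out 1 library gave 1070 to 1417 (537 to 791 higher, 468 to 698 lower). Against P14, they called 1046 and 1018 lower genes, fitting only the groups compared called 1776 (876 higher, 900 lower), and leaving out 1 library gave 1948 to 3592 (966 to 1932 higher, 982 to 1660 lower). The cause was not tested. With 1 library left out, the lone library is assumed to vary like the other groups.

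Of 129 called genes named in the text, 96 kept their call in every setting and 0 turned direction. Among genes that did not pass, the sign turned for Begain (0.091, 0.065 and 0.075 with named-gene scaling, without mitochondrial and top genes, and with voom, and -0.239 to 0.198 with 1 library left out), for Cd81 (-0.006 after centring, and -0.014 to 0.086 with 1 library left out), for Dlk1 (-0.771 to 0.16 with 1 library left out) and for Uhrf1 (0.028, 0.0 and 0.024 under the first 3 settings). Some genes that did not pass did so elsewhere. With limma-voom, adjusted p-values were 0.042 for Hoxa5, 0.027 for Manba, 0.04 for Etv4 and 0.03 for Mest. With only the groups compared, they were 0.0023 for Hoxa5, 0.0059 for Manba, 0.026 for Etv4, 0.02 for Asns and 0.042 for Tdgf1. With named-gene scaling, they were 0.025 for Mest and 0.04 for Peg3, and without mitochondrial and top genes 0.035 for Etv4, 0.024 each for Mest and Peg3, and 0.049 for Slc2a1. Calls lost with limma-voom included those of Lin28b (0.056), Myc (0.16), Bmp2 (0.053), Slc22a18 (0.053) and Hnf4a (0.065). Eed lost its call after centring (0.075) and H19 with a pseudocount of 0.1 (0.2). Differences between replicates 1 and 2 correlated at -0.05 between DKO and WT at day 2, and at -0.131 to 0.194 over all pairs of groups. These values cannot show whether libraries with the same number were handled together. With a replicate block 2686 genes were called, 2591 of them shared. Chromosome 8 was left out after seeing the data (2383 genes). Depth limits genes under 10 counts, for which 3 reads is the floor.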
